A study of Mus musculus with 24 samples.

Results

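The genes followed here are those of the main apolipoproteins of liver and of the transfer protein that loads them with lipid, in fasted mouse livers that differed in Tsc1, Cpt2 and Ppara. They are Apob, Mttp, Apoa1, Apoa2, Apoa4, Apoa5, Apoc1, Apoc2, Apoc3 and Apoe, taken by gene name from a table of read counts per gene. All 10 were found, out of 35275 genes in the table, and all 10 passed the filter on low counts, with counts of 800 or more in every library. The series held 24 libraries of liver RNA, 4 from each of 6 groups of male C57BL/6 mice, 8 to 10 weeks old, kept on chow and fasted for 24 h. In Tsc1L-/- mice Albumin-Cre, which is active in hepatocytes, deleted floxed Tsc1, an inhibitor of the growth-signaling complex mTorc1. In Cpt2L-/- mice the same driver deleted floxed Cpt2, an enzyme that mitochondria need to oxidize long-chain fatty acids, and in DKO mice it deleted both. Control livers were labelled wild type, and the methods describe controls as littermates with floxed Tsc1 and Cpt2. Ppara KO mice lacked Ppara, the nuclear receptor that switches on genes of fatty acid use in fasting, and Cpt2L-/- Ppara KO mice lacked it together with hepatocyte Cpt2. The labels do not say whether these last 2 groups had littermate controls or whether Ppara was lost in the whole body. Nothing in the sources used here says that animals were pooled.

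Apolipoproteins are the protein coat of the particles that carry lipid in blood. Apob is the structural protein of very low density lipoprotein (VLDL), and Mttp is the chaperone in the endoplasmic reticulum that moves triglyceride onto it while it is made. The smaller apolipoproteins exchange between particles, where they form high density lipoprotein (Apoa1, Apoa2), act on lipases (Apoc2 as activator, Apoc1 and Apoc3 as inhibitors, Apoa5 as an enhancer of clearance) or bind receptors (Apoe). Liver is the main source of most of them, and Apoa4 is made in liver and intestine.

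The 10 genes lay in GRCm38 at 2 clusters and 3 single sites. Apoa1 (9:46228580-46230466, + strand), Apoc3 (9:46232933-46235636, - strand), Apoa4 (9:46240696-46243459, + strand) and Apoa5 (9:46268633-46271919, + strand) lay within 43340 bases of chromosome 9. Apoc2 (7:19671579-19681423), Apoc1 (7:19689484-19692658) and Apoe (7:19696109-19699166), all on the - strand, lay on chromosome 7, together with Apoc4, which is inside the interval listed for Apoc2 and on its strand. Reads of Apoc2 and Apoc4 could therefore have been split by the counting, and Apoc2 is uncertain for that reason. Apob (12:7977648-8016835, + strand), Mttp (3:138089855-138143388, - strand) and Apoa2 (1:171225054-171226379, + strand) stood alone. The gene lengths used by the authors ran from 487 bases for Apoc1 to 13934 bases for Apob, a range that bears on several results below.

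Depth was 14470968 to 20371204 counts a library. Values of the genes are given as CPM, counts scaled to a common library size by TMM over the 24 libraries, unless FPKM is named, and fold changes come from the quasi-likelihood test of edgeR with Benjamini-Hochberg adjustment over all genes tested. Tsc1 was at 38.5 ± 1.32 CPM (SD, n = 4) in control, 24.5 ± 4.56 CPM (SD, n = 4) in Tsc1L-/- and 16.4 ± 1.24 CPM (SD, n = 4) in DKO livers, and Ppara was at 216 to 278 CPM in control against 13.2 to 90 CPM in the 8 libraries labelled as lacking it. Cpt2 was at 98.6 ± 7.04 CPM (SD, n = 4) in control and 91.7 ± 10.4 CPM (SD, n = 4) in Cpt2L-/- livers, so whole-gene counts did not check that label. The hepatocyte marker albumin was at 10939 CPM or more in every library, and 7 of 8 enterocyte markers were under 1 CPM in all 24. Fabp2, which liver also expresses, was the exception.

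The libraries stood apart in several ways that touch these genes. First, 3 genes chosen after their values were seen parted the groups: Cd1d2 was at 0.0695 to 0.868 CPM, Rps3a3 at 0.206 to 3.4 CPM and Gm6472 at 0.274 to 2.98 CPM in Cpt2L-/-, Ppara KO and Cpt2L-/- Ppara KO livers, against 11 to 61.7, 33.3 to 96.1 and 8.54 to 35.6 CPM in control, Tsc1L-/- and DKO livers. Those 12 libraries against the other 12 did not overlap for 96 of 13987 genes (0.686%), and in the comparisons between the sets genotype cannot be told apart from whatever else parted them. Comparisons inside either set are DKO against Tsc1L-/-, Tsc1L-/- against control, and the comparisons of Cpt2L-/- Ppara KO with Cpt2L-/- and with Ppara KO. Both interactions tested below draw on groups of both sets. Second, Nnt, also chosen after its values were seen, was at 18 to 69.5 CPM in the 8 livers lacking Ppara. It was at 118 to 150 CPM in Cpt2L-/-, 151 to 213 CPM in Tsc1L-/-, 186 to 220 CPM in control and 202 to 215 CPM in DKO livers. Nnt encodes a mitochondrial transhydrogenase that is disrupted in the C57BL/6J substrain. The labels name no substrain, and whether the deletions themselves changed Nnt was not tested. Cpt2L-/- Ppara KO livers (41.6 to 69.5 CPM) and Cpt2L-/- livers (118 to 150 CPM) did not overlap. In this comparison, and in Ppara KO against control, loss of Ppara cannot be told apart from whatever else, such as substrain, may have parted them in Nnt. Finally, libraries differed in how counts followed gene length. The median log2 deviation of the longest 20% of genes minus that of the shortest 20% was -0.1 to 0.09 in control livers, -0.07 to 0.13 in Tsc1L-/- livers, -0.09 to 0.48 in Cpt2L-/- livers and -0.37 to -0.02 in DKO livers. It was 0.15 to 0.78 in Ppara KO livers and -1.21 to 0.04 in Cpt2L-/- Ppara KO livers. Ppara KO replicate 4 (0.78) and Cpt2L-/- Ppara KO replicate 1 (-1.21) were farthest out. Every call of the 10 genes was therefore refitted with an offset for each library's length trend and, for groups lacking Ppara, without those 2 libraries. Calls of other genes named below were not refitted in these ways. These settings were chosen after the data were seen.

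**Figure D1:**
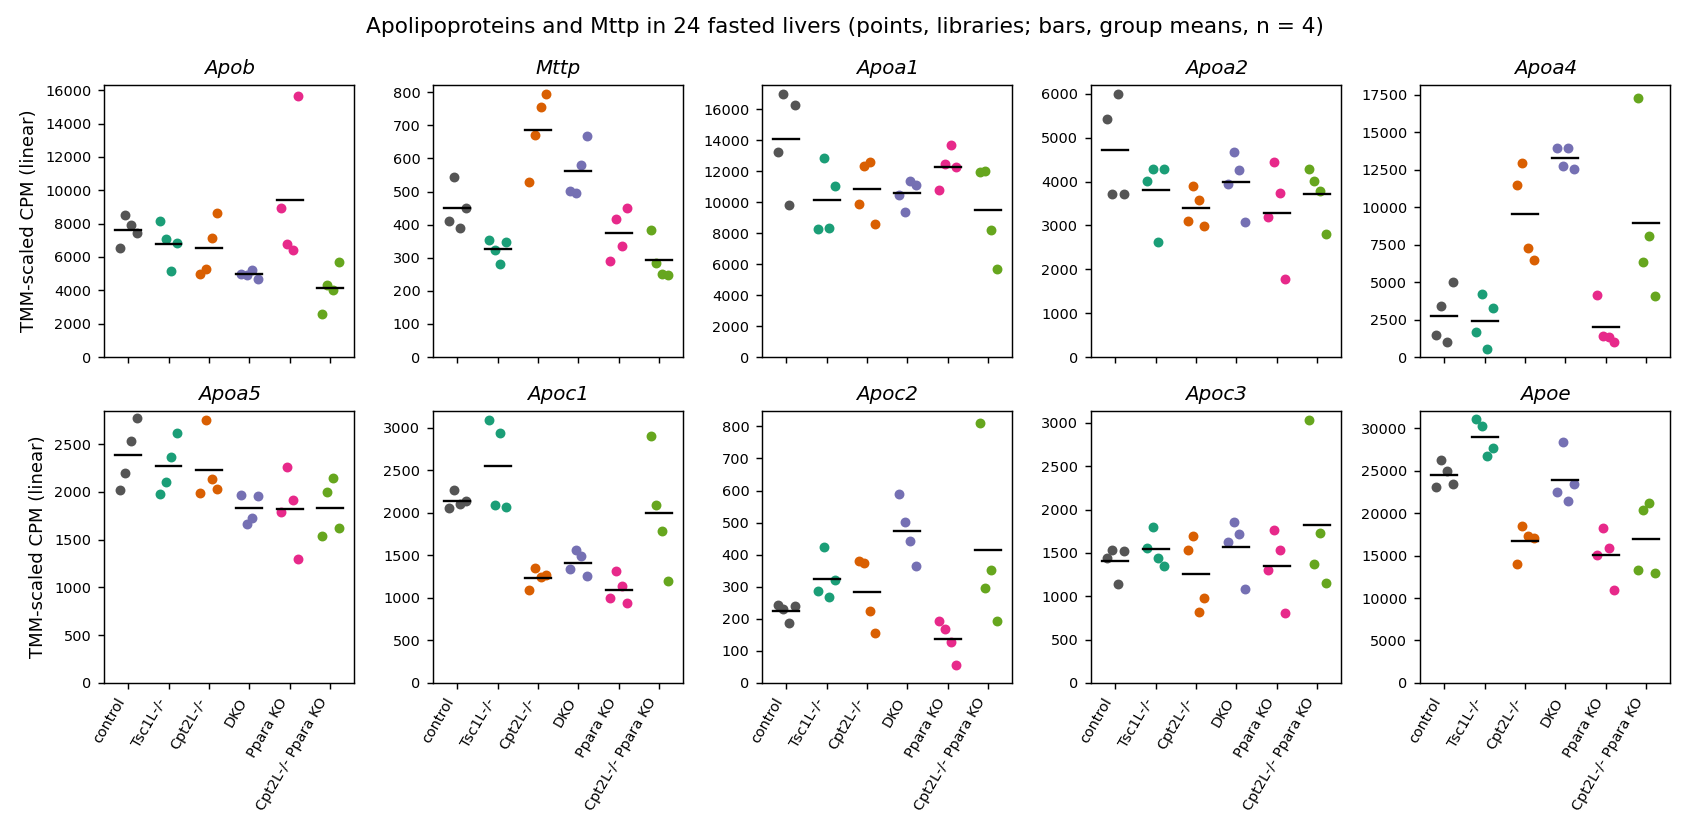
TMM-scaled CPM (linear axis from 0) of the 10 genes in each of the 24 livers; points are libraries, bars the mean of 4. Apoa4 is at 6464 CPM or more in every Cpt2L-/- and DKO liver and at 4999 CPM or less in every control, Tsc1L-/- and Ppara KO liver, whereas Apoa1, on the same cluster, overlaps in all 6 groups.

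Of 90 pairs of a gene and a comparison, 19 passed an adjusted p of 0.05, and 6 of the 10 genes passed in at least 1 comparison. Loss of Cpt2 on the control background called 4 of 10 members, when 31.0% of 13641 genes were called. On the Tsc1L-/- background, DKO against Tsc1L-/- called 3 of 10 against 32.2% of all genes. On the Ppara KO background, Cpt2L-/- Ppara KO against Ppara KO called 4 of 10 against 25.5% of 13615 genes. Loss of Tsc1 alone called none of 10 (3 at an unadjusted p under 0.05 in edgeR, 1 by DESeq2) against 6.64% of all genes, and loss of Tsc1 on the Cpt2L-/- background called 2 of 10 against 18.3%. Ppara KO against control called 2 of 10 against 29.0%, and Cpt2L-/- Ppara KO against Cpt2L-/- called 2 of 10 against 18.4%. The interaction of Tsc1 and Cpt2 loss called none of 10, with none at an unadjusted p under 0.05 in edgeR and none by DESeq2, against 2.38% of all genes. The interaction of Cpt2 and Ppara loss called 2 of 10 against 24.0%. With 10 members, a single call moves a share by a large step, and nothing is read here from how many were called. What follows is about which members changed. Comparisons that share a group are not independent of each other: each of the 6 groups enters more than 1.

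Mttp rose with loss of Cpt2 where Ppara was intact and was lower when Ppara was lost as well. It was at 410, 545, 391 and 450 CPM in the 4 control livers and at 529, 671, 755 and 795 CPM in the 4 Cpt2L-/- livers. In Tsc1L-/- livers it was at 355, 324, 282 and 349 CPM, and in DKO livers at 502, 496, 581 and 669 CPM. Every DKO liver was above every Tsc1L-/- liver, and the Cpt2L-/- livers overlapped the controls by a single animal on each side. The log2 fold change was 0.61 (SE 0.15, adjusted p = 0.00463, edgeR) for Cpt2L-/- against control and 0.79 (SE 0.15, adjusted p = 0.00062, edgeR) for DKO against Tsc1L-/-, or 1.53-fold and 1.73-fold. In none of the refits, the length offset included, were these calls lost. Loss of Tsc1 gave -0.45 (SE 0.15, adjusted p = 0.082, edgeR) against control and -0.27 (SE 0.15, adjusted p = 0.218, edgeR) on the Cpt2L-/- background, which did not pass. The first of these was called by DESeq2, at an adjusted p of 0.0365. The interaction of both deletions was 0.18 (SE 0.21, adjusted p = 0.706, edgeR).

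Without Ppara, Mttp was at 291, 416, 337 and 451 CPM in Ppara KO livers and at 384, 285, 250 and 249 CPM in Cpt2L-/- Ppara KO livers. These groups overlapped, and loss of Cpt2 between them gave a log2 fold change of -0.35 (SE 0.21, adjusted p = 0.219, edgeR). All 4 Cpt2L-/- Ppara KO livers were below all 4 Cpt2L-/- livers, with a log2 fold change of -1.23 (SE 0.21, adjusted p = 0.00108, edgeR), or 0.427 times the level. This call held in every refit and was -1.06 (adjusted p = 0.00384, edgeR) with the length offset, but these groups also differed in Nnt. Ppara KO against control was -0.27 (SE 0.21, adjusted p = 0.343, edgeR). The difference between the 2 responses to loss of Cpt2 was itself called, at -0.96 (SE 0.29, adjusted p = 0.0252, edgeR), but with the length offset it was -0.76 (adjusted p = 0.084, edgeR) and did not pass. Without the 2 outlying libraries it was called, at -1.03 (adjusted p = 0.00976, edgeR), and at -0.92 (adjusted p = 0.0185, edgeR) with the offset as well. It also missed the threshold without control replicate 1 or 3 or Cpt2L-/- replicate 3 or 4, with an adjusted p of at most 0.0577. Its control livers lie in a different set of libraries from its other groups, so genotype and set cannot be told apart in it.

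The promoters of Mttp and Apoa4 are shown because both genes rose with loss of Cpt2 in livers with intact Ppara, and that of Apob because its protein is the partner of Mttp. The sequences are from RefSeq in GRCm38.p6, which had windows for 8 of the 10 genes (not Apoc1 or Apoc3), and are read 5′ to 3′ on the strand of each gene. Each stops before both the start in the deposited table and the RefSeq start, so that the last base lies 1 base before the RefSeq start for Mttp, 149 bases before it for Apoa4 and 30 bases before it for Apob. Mttp is chr3:138143419-138143568 (- strand), Apoa4 is chr9:46240594-46240695 (+ strand) and Apob is chr12:7977498-7977647 (+ strand). Capitals mark matches, on either strand, to AGGTCA (the core of a nuclear receptor element), TGACGT (the core of a cyclic AMP response element) or CACGTG (an E-box).
Mttp: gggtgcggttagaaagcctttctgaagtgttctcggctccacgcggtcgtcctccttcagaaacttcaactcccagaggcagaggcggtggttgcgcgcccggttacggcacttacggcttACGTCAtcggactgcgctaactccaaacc
Apoa4: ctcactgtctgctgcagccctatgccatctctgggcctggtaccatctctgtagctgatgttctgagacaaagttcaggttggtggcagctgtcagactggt
Apob: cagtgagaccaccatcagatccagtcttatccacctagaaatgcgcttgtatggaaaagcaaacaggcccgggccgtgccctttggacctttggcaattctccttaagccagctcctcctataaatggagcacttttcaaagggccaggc
Mttp held a match to TGACGT, on the opposite strand and starting 29 bases before the RefSeq start, and 7.51% of 32851 windows of 300 bases held that motif. The Apoa4 and Apob windows held none of the 3 motifs. Elsewhere among the members, AGGTCA was in the Apoc2 window and in an alternative Apoa2 window, against 16.3% of all windows, and CACGTG was in both Apoa5 windows, against 7.15%. A match of 6 letters is a description of the window and not a site.

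Apob, the longest of the genes, was called by edgeR in 1 comparison, and that call was lost with the length offset. It was at 6524, 8540, 7908 and 7409 CPM in control livers and at 8142, 7069, 5175 and 6813 CPM in Tsc1L-/- livers. Cpt2L-/- livers had 4987, 5288, 7164 and 8624 CPM and DKO livers 4985, 4935, 5248 and 4677 CPM. The DKO values were close together and below all 4 controls, although DKO against Tsc1L-/- did not pass, at a log2 fold change of -0.44 (SE 0.19, adjusted p = 0.0773, edgeR). It was called there by DESeq2, at -0.46 (adjusted p = 0.027), and by edgeR with upper-quartile scaling, at -0.49 (adjusted p = 0.0411). Ppara KO livers had 8909, 6756, 6432 and 15664 CPM, and Cpt2L-/- Ppara KO livers 2596, 4339, 4027 and 5713 CPM. These groups did not overlap, and the log2 fold change was -1.18 (SE 0.31, adjusted p = 0.0134, edgeR), or 0.442 times the level. The highest of the Ppara KO values and the lowest of the Cpt2L-/- Ppara KO values came from the libraries with the most extreme length trends. Without both, the log2 fold change was -0.64 (adjusted p = 0.101, edgeR), and with the length offset over all libraries it was -0.47 (adjusted p = 0.122, edgeR). Cpt2L-/- Ppara KO against Cpt2L-/- was -0.64 (SE 0.30, adjusted p = 0.15, edgeR) and the interaction -0.95 (SE 0.43, adjusted p = 0.113, edgeR). Of the 4 comparisons in which edgeR called Mttp, it called Apob in none, and DESeq2 called Apob in 1.

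Apoa4, whose protein rides on triglyceride-rich particles and high density lipoprotein, had the largest change of the 10 genes and rose with loss of Cpt2 on all 3 backgrounds. It was at 1470, 3375, 989 and 4999 CPM in control livers and at 11448, 12933, 7247 and 6464 CPM in Cpt2L-/- livers. Tsc1L-/- livers had 1699, 4181, 512 and 3273 CPM, and DKO livers 13960, 12735, 13947 and 12576 CPM. Neither pair of groups overlapped, and the DKO livers were closer together than those of any other group. The log2 fold change was 1.81 (SE 0.57, adjusted p = 0.0255, edgeR) for Cpt2L-/- against control and 2.47 (SE 0.58, adjusted p = 0.00483, edgeR) for DKO against Tsc1L-/-, or 3.52-fold and 5.55-fold. The second held in every refit. The first missed the threshold with no filter on low counts, or without control replicate 1 or 3 or Cpt2L-/- replicate 1 or 2, at an adjusted p of up to 0.066.

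Loss of Ppara did not lower Apoa4 past the test. Ppara KO livers were at 4130, 1424, 1364 and 1004 CPM and Cpt2L-/- Ppara KO livers at 17317, 6314, 8063 and 4072 CPM. The groups overlapped by the highest Ppara KO and the lowest Cpt2L-/- Ppara KO liver. Loss of Cpt2 between them gave a log2 fold change of 2.18 (SE 0.56, adjusted p = 0.0127, edgeR), or 4.53-fold, and 1.96 (adjusted p = 0.0206, edgeR) with the length offset. Without Cpt2L-/- Ppara KO replicate 1 the call was lost at an adjusted p of 0.0599 (edgeR), and without both libraries that stood apart it was 1.42 (adjusted p = 0.114, edgeR). Ppara KO against control was -0.45 (SE 0.54, adjusted p = 0.563, edgeR) and Cpt2L-/- Ppara KO against Cpt2L-/- was -0.08 (SE 0.53, adjusted p = 0.931, edgeR). The interaction was 0.37 with an SE of 0.76 (adjusted p = 0.759, edgeR), so these data allow a response without Ppara that is smaller or larger than that with it. Apoa4 and Mttp both rose with loss of Cpt2 where Ppara was intact. Without Ppara, Apoa4 was called and Mttp was not, and the difference between the genes was not tested.

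Loss of Tsc1 gave Apoa4 a log2 fold change of -0.16 (SE 0.55, adjusted p = 0.917, edgeR) against control and 0.50 (SE 0.55, adjusted p = 0.566, edgeR) on the Cpt2L-/- background, with an interaction of 0.66 (SE 0.78, adjusted p = 0.707, edgeR). On the scale per length, FPKM, Apoa4 was sixth of the 10 members in control livers, at 1406 ± 975 (SD, n = 4), and was at rank 4 in Cpt2L-/- and DKO livers. Among all genes its mean FPKM ranked 51 in control livers, 11 in Cpt2L-/- livers and 7 in DKO livers.

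**Figure D2:**
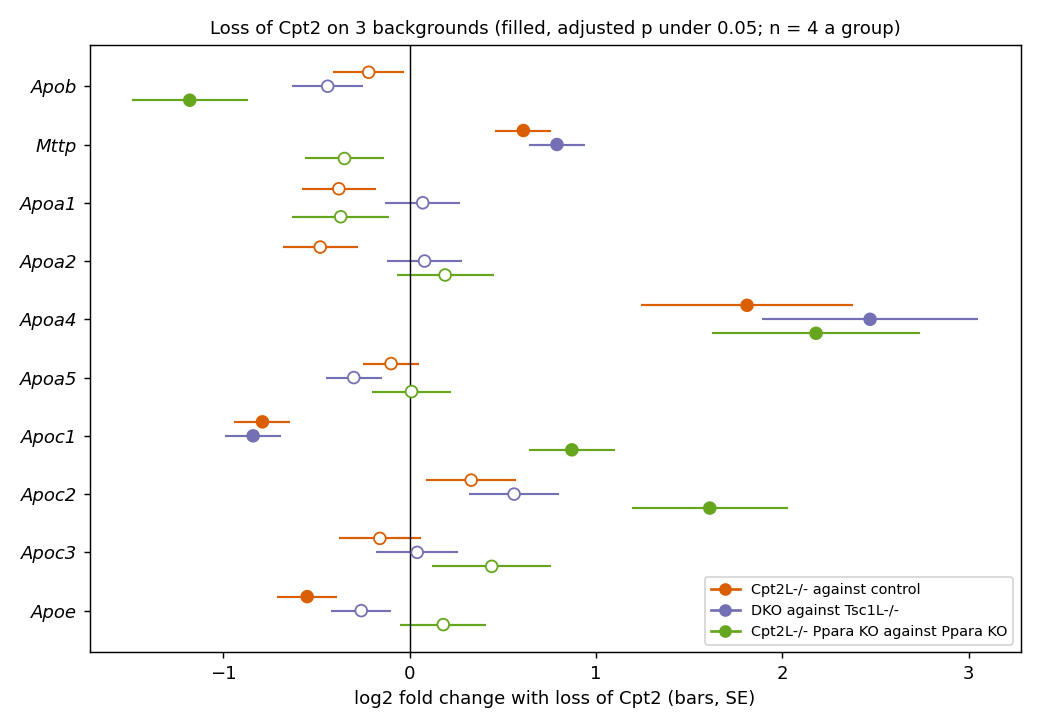
Log2 fold change (x axis; bars are SE) of each gene with loss of Cpt2 against control, Tsc1L-/- and Ppara KO livers, 4 libraries a group; filled points passed an adjusted p of 0.05. Apoa4 lies at 1.81, 2.47 and 2.18, while Mttp lies at 0.61, 0.79 and -0.35, the last of which did not pass.

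The neighbours of Apoa4 on chromosome 9 did not follow it. Apoc3 ends 5059 bases before Apoa4, and Apoa1, Apoc3 and Apoa5 were called by edgeR in none of the 9 comparisons, and neither was Apoa2 on chromosome 1. Over these 4 genes and 9 comparisons the log2 fold changes ran from -0.53 to 0.67, and the lowest adjusted p was 0.0835 (edgeR). Apoa1, the main protein of high density lipoprotein, was at 13248, 17012, 9820 and 16250 CPM in control livers and at 8276, 12875, 8305 and 11057 CPM in Tsc1L-/- livers, a log2 fold change of -0.47 (SE 0.20, adjusted p = 0.189, edgeR). It was called in a single refit of the loss of Cpt2 without Ppara, where the length offset moved -0.37 (SE 0.26, adjusted p = 0.299, edgeR) to -0.93 (adjusted p = 0.0152, edgeR). Apoa2, its partner, ran from 1778 to 5991 CPM over the 24 livers, with -0.48 (SE 0.20, adjusted p = 0.0835, edgeR) for Cpt2L-/- against control, which DESeq2 called at an adjusted p of 0.0437. Apoa5, which aids the clearance of triglyceride, ran from 1302 to 2776 CPM and had the narrowest range of group means, 0.41 on the log2 CPM scale, against 2.98 for Apoa4. Apoc3, which slows that clearance, ran from 805 to 3029 CPM, and its highest value was in Cpt2L-/- Ppara KO replicate 1.

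Of 9 further genes that flank this cluster, 3 rose and 1 fell with loss of Cpt2 on the control background, and 1 rose and 1 fell in DKO against Tsc1L-/-, where 31.0% and 32.2% of all genes were called. The larger of these were Tagln, a smooth muscle gene, at -1.02 (SE 0.35, adjusted p = 0.0375, edgeR), and Sidt2, a lysosomal protein, at 0.50 (SE 0.14, adjusted p = 0.0113, edgeR), both for Cpt2L-/- against control. Each of the 9 changed less than Apoa4 in these 2 comparisons.

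Apoc1, a small inhibitor of lipoprotein lipase and of receptor uptake, fell with loss of Cpt2 where Ppara was intact. It was at 2050, 2263, 2107 and 2136 CPM in control livers and at 1090, 1345, 1247 and 1263 CPM in Cpt2L-/- livers. Tsc1L-/- livers had 3089, 2087, 2934 and 2065 CPM, and DKO livers 1333, 1562, 1488 and 1257 CPM. Neither pair of groups overlapped. The log2 fold change was -0.79 (SE 0.15, adjusted p = 0.000665, edgeR) for Cpt2L-/- against control and -0.84 (SE 0.15, adjusted p = 0.000402, edgeR) for DKO against Tsc1L-/-, or 0.577 and 0.559 times the level. Both held in every refit, at -0.62 (adjusted p = 0.0189, edgeR) and -0.99 (adjusted p = 0.000778, edgeR) with the length offset. Loss of Tsc1 gave 0.25 (SE 0.15, adjusted p = 0.362, edgeR), and the interaction of the deletions was -0.04 (SE 0.21, adjusted p = 0.942, edgeR).

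Ppara KO livers had 992, 1312, 1143 and 938 CPM of Apoc1, all below all controls, a log2 fold change of -0.97 (SE 0.23, adjusted p = 0.00436, edgeR) that held in every refit. This comparison crosses the sets of libraries and the difference in Nnt, and no refit addressed either. Cpt2L-/- Ppara KO livers had 2897, 2089, 1780 and 1201 CPM, so that only the lowest of them was in the range of Ppara KO livers. Loss of Cpt2 on this background gave 0.87 (SE 0.23, adjusted p = 0.0139, edgeR), loss of Ppara on the Cpt2L-/- background 0.69 (SE 0.23, adjusted p = 0.0422, edgeR), and the interaction 1.67 (SE 0.32, adjusted p = 0.00228, edgeR). All 3 of these calls were lost with the length offset. With it they were 0.02 (adjusted p = 0.94, edgeR), -0.08 (adjusted p = 0.821, edgeR) and 0.65 (adjusted p = 0.0887, edgeR). Without the 2 outlying libraries they were 0.58 (adjusted p = 0.0717, edgeR), 0.45 (adjusted p = 0.119, edgeR) and 1.35 (adjusted p = 0.00274, edgeR), so that the interaction alone stayed called. The falls of Apoc1 with loss of Cpt2 or Ppara held under the offset, and its rises in livers lacking both did not. In the interaction, too, control livers lie in a different set of libraries from the other groups, so genotype and set cannot be told apart.

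Apoc2, the activator of lipoprotein lipase, is a short gene as well. It was at 243, 232, 186 and 239 CPM in control, 286, 423, 269 and 321 CPM in Tsc1L-/-, and from 156 to 379 CPM in the 4 Cpt2L-/- livers. DKO livers had 589, 502, 444 and 365 CPM, Ppara KO livers 194, 169, 128 and 54.9 CPM, and Cpt2L-/- Ppara KO livers 811, 296, 353 and 193 CPM. The lowest and highest of all 24 values were Ppara KO replicate 4 and Cpt2L-/- Ppara KO replicate 1. DKO against Cpt2L-/- gave a log2 fold change of 0.76 (SE 0.24, adjusted p = 0.035, edgeR), which was lost in 9 of 19 refits and was 0.57 (adjusted p = 0.0416, edgeR) with the length offset. Cpt2L-/- Ppara KO against Ppara KO gave 1.61 (SE 0.42, adjusted p = 0.0137, edgeR), or 3.05-fold. With the length offset it was 0.87 (adjusted p = 0.048, edgeR), and without both outlying libraries 0.79 (adjusted p = 0.0863, edgeR). Among the 7 comparisons of Apoc2 that did not pass, the log2 fold change was 0.54 (SE 0.24) for Tsc1L-/- and 0.33 (SE 0.24) for Cpt2L-/- against control, 0.56 (SE 0.24) for DKO against Tsc1L-/-, and -0.73 (SE 0.41) for Ppara KO against control. The largest of the 7 was the interaction of Cpt2 and Ppara loss, at 1.28 (SE 0.58, adjusted p = 0.116, edgeR), which was -0.07 with the length offset and without both outlying libraries. Cpt2L-/- Ppara KO against Cpt2L-/- was 0.55 (SE 0.41, adjusted p = 0.368, edgeR) and -0.02 without Cpt2L-/- Ppara KO replicate 1. In a fit of 2 groups DKO against Tsc1L-/- was called, at 0.54 (adjusted p = 0.0462, edgeR). Apoc4, which shares the interval, had 1.40 (SE 0.30, adjusted p = 0.00608, edgeR) in Cpt2L-/- Ppara KO against Ppara KO and -1.15 (SE 0.29, adjusted p = 0.00746, edgeR) in Ppara KO against control.

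**Figure D3:**
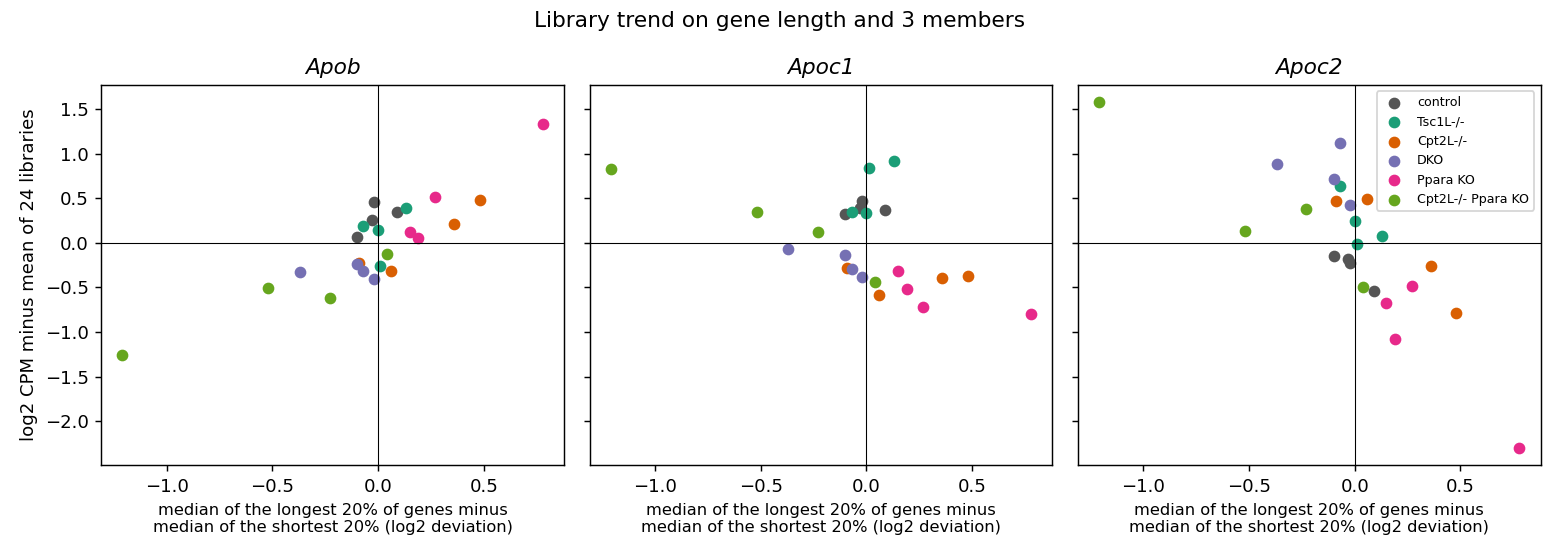
Each point is a liver: the x axis is the median log2 deviation of the longest 20% of genes minus that of the shortest 20%, and the y axis is log2 CPM of Apob, Apoc1 or Apoc2 minus its mean over 24 libraries. Apob (13934 bases) is highest at the right, in Ppara KO replicate 4 (1.34), and lowest at the left, in Cpt2L-/- Ppara KO replicate 1 (-1.26), and Apoc2 (722 bases) is the reverse (-2.3 and 1.58).

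Apoe, the receptor ligand on remnants of triglyceride-rich particles, parted the groups along the same line as Cd1d2, Rps3a3 and Gm6472. It was at 23110, 26331, 25035 and 23427 CPM in control, 31079, 30326, 26698 and 27728 CPM in Tsc1L-/-, and 22508, 28381, 21494 and 23447 CPM in DKO livers. Cpt2L-/- livers had 13971, 18459, 17365 and 17128 CPM, Ppara KO livers 15119, 18234, 15952 and 10927 CPM, and Cpt2L-/- Ppara KO livers 13310, 20367, 21244 and 12932 CPM. The highest value in the second set, 21244 CPM, was below the lowest in the first, 21494 CPM, and Apoe was the only member for which the sets did not overlap. Its 3 calls were all between the sets. They were -0.55 (SE 0.16, adjusted p = 0.0128, edgeR) for Cpt2L-/- against control, -0.71 (SE 0.23, adjusted p = 0.0283, edgeR) for Ppara KO against control and 0.54 (SE 0.16, adjusted p = 0.0249, edgeR) for DKO against Cpt2L-/-. Within the sets no difference passed in edgeR: 0.25 (SE 0.16, adjusted p = 0.404, edgeR) for Tsc1L-/- against control, -0.26 (SE 0.16, adjusted p = 0.225, edgeR) for DKO against Tsc1L-/- and 0.18 (SE 0.23, adjusted p = 0.593, edgeR) for Cpt2L-/- Ppara KO against Ppara KO. DESeq2 called DKO against Tsc1L-/-, at -0.28 (adjusted p = 0.043). For the 3 edgeR calls of Apoe, genotype and the sets of libraries cannot be told apart. For Mttp, Apoa4 and Apoc1, loss of Cpt2 was also called within a set, as DKO against Tsc1L-/-. With the length offset, Apoe stayed called in Cpt2L-/- against control at an adjusted p of 0.0487 and in neither of the other comparisons. That call was lost in the fit of all 24 libraries, at an adjusted p of 0.0592 (edgeR). The calls in DKO against Cpt2L-/- and Ppara KO against control were lost in 6 of 19 and 8 of 21 refits, among them those without Cpt2L-/- replicate 1, 3 or 4 or DKO replicate 2 for the former, and those without control replicate 2, 3 or 4 or Ppara KO replicate 3 or 4 for the latter, at adjusted p of up to 0.13 and 0.087.

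**Figure D4:**
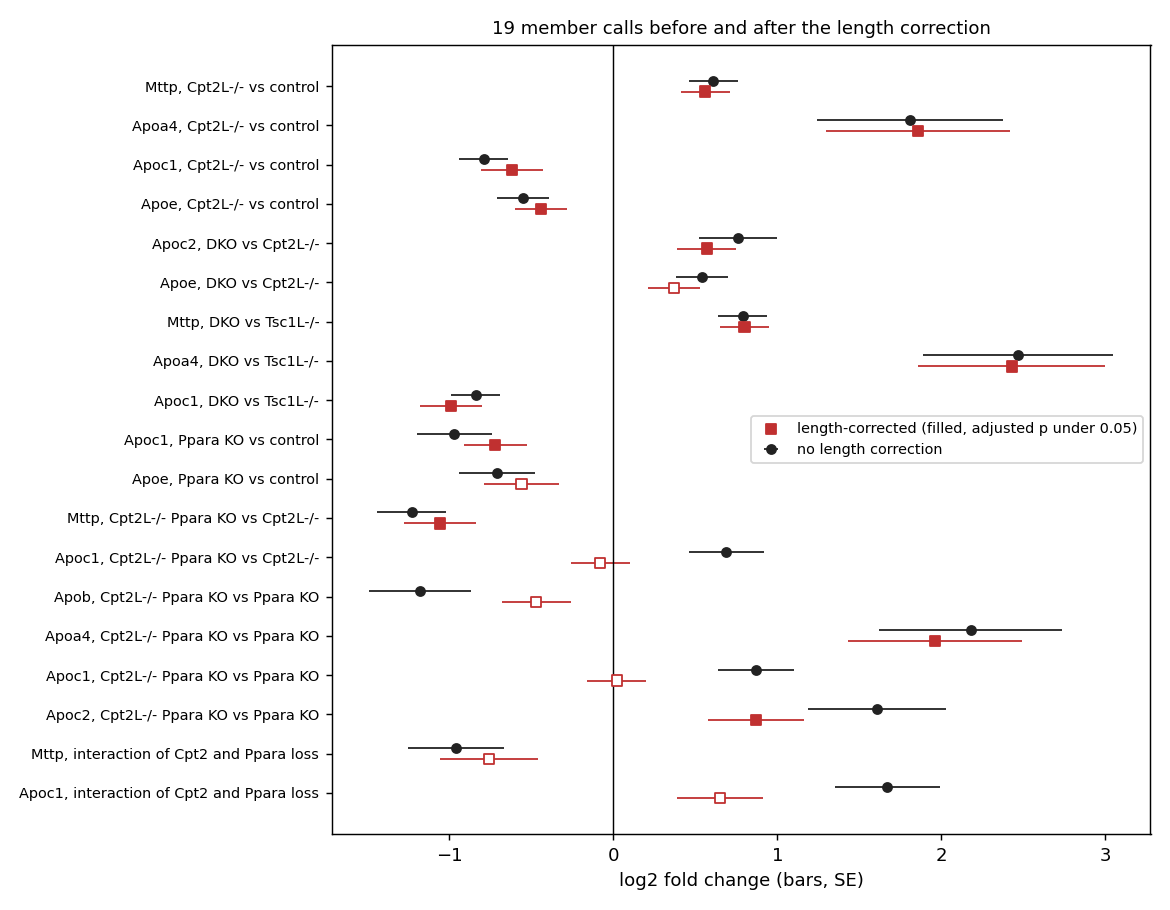
Log2 fold changes (bars are SE) of the 19 calls without (black circles) and with (red squares) the length offset; filled squares passed an adjusted p of 0.05. All 3 calls of DKO against Tsc1L-/- and all 4 of Cpt2L-/- against control stay filled, whereas Apoc1 moves to 0.02 and -0.08 in the comparisons of Cpt2L-/- Ppara KO livers.

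Of the 19 calls, 12 held with the length offset. In the 4 groups of control, Tsc1L-/-, Cpt2L-/- and DKO livers, 8 of 9 held, and in the groups that include livers without Ppara, 4 of 10 held. The 7 lost calls were those of Apoe in DKO against Cpt2L-/- and in Ppara KO against control, Apoc1 in both comparisons of Cpt2L-/- Ppara KO livers and in the interaction, Mttp in the interaction, and Apob. The part of gene length in the calls that held was not tested further.

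On the scale per length the members differed from each other far more than the groups did. In control livers Apoe led at 16824 ± 1394 FPKM (SD, n = 4), the second highest mean of all genes, followed by Apoa1 at 12839 ± 2415, Apoa2 at 8769 ± 2707, Apoc1 at 4184 ± 277 and Apoc3 at 1881 ± 182 FPKM. Below them came Apoa4, Apoa5 at 909 ± 184, Apob at 519 ± 62, Apoc2 at 296 ± 29.6 and Mttp at 99.4 ± 8.17 FPKM. Of neighbours in this order, Apoa1 and Apoa2, Apoc3 and Apoa4, and Apoa4 and Apoa5 overlapped over the 4 livers, and the other neighbours did not. Together the 10 genes took 5.72% ± 0.397 (SD, n = 4) of all counts in control livers, 6.74% ± 0.341 in DKO livers and 4.45% ± 0.445 in Ppara KO livers, and 8 of them were among the 100 most abundant genes. Apoe alone took 2.1% of counts and Apoa1 1.11%, averaged over the 24 libraries.

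Genes of the same pathways gave the setting. A further list held 16 tested genes named as apolipoproteins or tied to lipoprotein particles. Not all of them encode proteins of the particles: a receptor is among them, as are Apol genes. Of the 16, 1 rose and 10 fell in Cpt2L-/- against control and 2 rose and 10 fell in DKO against Tsc1L-/-. The medians were -1.0 and -1.14 against -0.016 and -0.000 for all genes, of which 31.0% and 32.2% were called. The falls were led by Saa4, a constitutive serum amyloid A protein of high density lipoprotein, at -3.76 (SE 0.53, adjusted p = 0.000166, edgeR) and -4.04 (SE 0.54, adjusted p = 0.000101, edgeR). The rise in both was that of Apobr, a receptor for apolipoprotein B on macrophages, at 1.95 (SE 0.27, adjusted p = 4.14e-05, edgeR) and 1.31 (SE 0.28, adjusted p = 0.00148, edgeR). The median of the 10 members was -0.19 and 0.06 in the same comparisons, with both signs among them. Without Ppara, loss of Cpt2 raised 4 and lowered 4 of the 16, where 25.5% of all genes were called.

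Of 28 genes of VLDL assembly and secretion other than Apob and Mttp, 4 rose and 4 fell in Cpt2L-/- against control, 8 rose and 3 fell in DKO against Tsc1L-/-, and 2 rose and 4 fell in Cpt2L-/- Ppara KO against Ppara KO. Over all genes 31.0%, 32.2% and 25.5% were called in these comparisons, and the counts of this list and of those below are to be read against these shares. Cidec, a lipid droplet protein, rose in all 3, at 3.58 (SE 0.56, adjusted p = 0.000345, edgeR), 4.06 (SE 0.57, adjusted p = 0.00015, edgeR) and 1.71 (SE 0.49, adjusted p = 0.0197, edgeR). In the third, Cpt2L-/- Ppara KO replicates 1 to 4 were at 502, 123, 173 and 147 CPM and Ppara KO livers at 113, 39, 109 and 30 CPM. That call was not refitted without the outlying replicate 1. Tm6sf2, which acts in the lipidation of VLDL, fell in Cpt2L-/- against control at -1.29 (SE 0.24, adjusted p = 0.000799, edgeR), where Mttp rose. Sec24d, a coat protein of secretory vesicles, rose there at 0.95 (SE 0.12, adjusted p = 1.44e-05, edgeR).

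Among 16 genes of lipolysis and remodelling, 2 rose and 4 fell in Cpt2L-/- against control and 2 rose and 7 fell in DKO against Tsc1L-/-. Lipa, the lysosomal acid lipase, rose at 1.31 (SE 0.17, adjusted p = 1.58e-05, edgeR) and 1.36 (SE 0.17, adjusted p = 1.03e-05, edgeR). Angptl4, a secreted inhibitor of lipoprotein lipase and a known Ppara target, was at -0.05 (SE 0.16, adjusted p = 0.857, edgeR) in Cpt2L-/- against control and rose by 0.63 (SE 0.16, adjusted p = 0.00699, edgeR) in DKO against Tsc1L-/-. Among 13 lipoprotein receptors and their regulators, 3 rose and 3 fell in Cpt2L-/- against control and 2 rose and 4 fell in DKO against Tsc1L-/-. Scarb1, the receptor for high density lipoprotein, fell at -1.02 (SE 0.15, adjusted p = 6.95e-05, edgeR) and -1.54 (SE 0.15, adjusted p = 1.8e-06, edgeR), and Cd36, a fatty acid transporter, rose at 1.47 (SE 0.47, adjusted p = 0.0289, edgeR) and 2.01 (SE 0.48, adjusted p = 0.00565, edgeR).

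Of 29 transcription factors known to act on apolipoprotein genes, 3 rose and 7 fell in Cpt2L-/- against control and 2 rose and 9 fell in DKO against Tsc1L-/-, where 31.0% and 32.2% of all genes were called. Creb3l3, a membrane-bound factor of the fasted liver known to activate Apoa4, rose in both, at 0.40 (SE 0.11, adjusted p = 0.0115, edgeR) and 0.56 (SE 0.11, adjusted p = 0.000943, edgeR). It fell in Cpt2L-/- Ppara KO against Cpt2L-/- livers at -0.83 (SE 0.17, adjusted p = 0.00426, edgeR), and was at 0.00 (SE 0.17, adjusted p = 0.989, edgeR) in Cpt2L-/- Ppara KO against Ppara KO livers. Its calls were thus in the same comparisons and directions as those of Mttp, apart from loss of Tsc1, where Creb3l3 was called at -0.41 (SE 0.11, adjusted p = 0.0335, edgeR) and the interaction, where it was not called. Hnf4a, a main activator of Apob, Mttp and the chromosome 9 cluster, was called in none of these, at -0.21 (SE 0.16, adjusted p = 0.333, edgeR) in Cpt2L-/- against control and -0.61 (SE 0.23, adjusted p = 0.0593, edgeR) in Cpt2L-/- Ppara KO against Ppara KO.

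The 3 members with the widest range of group means on the log2 CPM scale were Apoa4 (2.98), Apoc2 (1.93) and Mttp (1.24). Over the 24 libraries the genes most like Apoa4 were Fam131c (Pearson r = 0.938), Cgref1 (0.919) and Cidec (0.911), among 13986 compared. Those most like Mttp were Celf2 (0.918), Crat (0.905), a mitochondrial carnitine acyltransferase, and Bcl2l13 (0.897). Those most like Apoc2 were Guk1 (0.912), Serf2 (0.906) and Mpc1-ps (0.903). These are descriptions over libraries that share genotypes and length trends.

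Other cell types were followed beside these results, because in whole liver fewer hepatocytes and less RNA per hepatocyte cannot be told apart. The 7 hepatocyte markers summed to 57590 to 74018 CPM in control, 37772 to 66353 CPM in Tsc1L-/-, 28954 to 49595 CPM in Cpt2L-/- and 23309 to 29113 CPM in DKO livers. The sums were 52059 to 75002 CPM in Ppara KO and 34561 to 56144 CPM in Cpt2L-/- Ppara KO livers. Much of each sum was albumin, at 39966 to 49073 CPM in control and 10939 to 14961 CPM in DKO livers. Of the 7, 4 fell in Cpt2L-/- against control and in DKO against Tsc1L-/-, where 31.0% and 32.2% of all genes were called. In both of these comparisons Apoa4 and Mttp rose and Apoc1 fell, and Apoe fell in the first. The 9 macrophage markers, which matter because macrophages also make Apoe and Apoc1, summed to 255 to 426 CPM in control, 279 to 430 CPM in Tsc1L-/-, 236 to 403 CPM in Cpt2L-/-, 177 to 303 CPM in DKO, 255 to 324 CPM in Ppara KO and 353 to 457 CPM in Cpt2L-/- Ppara KO livers. Of them 4 rose and none fell in Cpt2L-/- Ppara KO against Ppara KO, and 1 rose and 2 fell in Cpt2L-/- against control, the rise being that of Cd68 at 2.03 (SE 0.34, adjusted p = 0.00039, edgeR). In DKO against Tsc1L-/-, where Apoc1 fell, 1 rose and 5 fell, with a median of -0.85. In Ppara KO against control, where Apoc1 and Apoe fell, 1 rose and 2 fell, with a median of -0.61. In Cpt2L-/- Ppara KO against Cpt2L-/-, where Apoc1 rose, 3 rose and none fell, with a median of 0.32. In DKO against Cpt2L-/-, where Apoe rose, 1 rose and 4 fell, with a median of -0.72. Over all genes 25.5%, 31.0%, 32.2%, 29.0%, 18.4% and 18.3% were called in these comparisons, in the order given, and nothing is read from the counts of 9 markers. The part of macrophages in the values of Apoe and Apoc1 was not tested. Fabp2, the single enterocyte marker tested, was at 562 CPM in Cpt2L-/- Ppara KO replicate 1 and rose there against Ppara KO by 2.82 (SE 0.63, adjusted p = 0.00784, edgeR), and the other 7 enterocyte markers were near 0.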

How the data were processed

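RNA of 24 livers (4 libraries a group) was sequenced from stranded mRNA libraries as single reads. The authors deposited counts per gene and FPKM (counts scaled to gene length and library size); recomputing FPKM from the counts gave the same values for 100% of genes (tolerance 1e-06). The submitters' processing notes name STAR 2.5, HTSeq 0.6.1, TopHat, Bowtie 0.12.2, edgeR and DESeq2, with no roles. They name the builds mm8 and mm9, whereas the coordinates in the table match GRCm38. The strand setting of counting is not given in the sources used here.

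The 10 genes and all gene lists were chosen with earlier results of these data known. Counts were tested with edgeR 4.0.16 (R 4.3.3; quasi-likelihood, robust; TMM; filterByExpr with a minimum count of 10 and total of 15) in 2 fits of 16 libraries each: control, Tsc1L-/-, Cpt2L-/- and DKO, then control, Cpt2L-/-, Ppara KO and Cpt2L-/- Ppara KO. The p-values were adjusted over all genes of a fit, and the threshold was 0.05. On simulated counts for Tsc1L-/- against control (13582 genes), 72 of 100 genes changed by 1 on the log2 scale and 99 of 100 changed by 2 were recovered.

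Named were the 10 genes, Tsc1, Cpt2, Ppara, Hnf4a, Creb3l3 and Angptl4, for each list and comparison up to 2 called genes with the largest rise and up to 2 with the largest fall, and the 3 genes most correlated with each of the 3 widest-ranging members. Cd1d2, Rps3a3, Gm6472, Nnt and Apoc4 were named after their values were seen. Alternatives were other scalings, no filter, DESeq2 1.42.0, limma 3.58.1 on log2(FPKM + 1) and log2(FPKM + 0.1), a replicate block, fits of 2 groups or of all 24 libraries, and leaving out each library. The length offset (lowess of each library's log2 deviation on log2 length, span 0.3) and the fits without Ppara KO replicate 4 and Cpt2L-/- Ppara KO replicate 1 were added after seeing the data. The labels do not say that each library is a separate animal, so the p-values measure the spread between these libraries. No 2 libraries of a group agreed within counting noise. Intervals from counting were not needed at these depths. A gene of the lipolysis list is not reported here.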

Additional observations from a re-analysis of the deposited data

Results flagged for a closer look

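Apoa2 was at 2614 CPM in Tsc1L-/- replicate 3, apart from 4021 to 4297 CPM in the other 3 livers of that group. Apoa4 was at 4130 CPM in Ppara KO replicate 1, apart from 1004 to 1424 CPM in the other 3. In each case the gap to the nearest liver took more of the group's range (0.836 and 0.866) than Dixon's 95% critical value for 4 samples. These were 2 of 60 sets of a gene and a group, and chance gives about 1 in 20. The fold change with loss of Cpt2 differed with and without Ppara for Mttp, by -0.96 on the log2 scale, and for Apoc1, by 1.67. Control livers lie in a different set of libraries from the other groups compared here, so genotype and set cannot be told apart. Both interactions passed the edgeR test and both missed the threshold with the length offset, at -0.76 and 0.65. Without Ppara KO replicate 4 and Cpt2L-/- Ppara KO replicate 1 both passed, at -1.03 (adjusted p = 0.00976, edgeR) and 1.35 (adjusted p = 0.00274, edgeR). With the offset and without those libraries Mttp passed, at -0.92 (adjusted p = 0.0185, edgeR), and Apoc1 did not, at 0.70 (adjusted p = 0.069, edgeR).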

How the results depend on the processing

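Of the 47 fold changes followed over 993 alternative values, 896 kept their direction and side of the threshold. With the sign kept, 63 lost a call and 12 gained one, and a further 22 changed sign. Those 22 include Apoc1 in Cpt2L-/- Ppara KO against Cpt2L-/- with the length offset, where the call was lost as well. Of the 19 calls, 7 held in every alternative: Mttp and Apoc1 in Cpt2L-/- against control and in DKO against Tsc1L-/-, Apoa4 in DKO against Tsc1L-/-, Mttp in Cpt2L-/- Ppara KO against Cpt2L-/-, and Apoc1 in Ppara KO against control. No alternative addressed the sets of libraries, which the calls against control cross, or the difference in Nnt, which the calls with loss of Ppara cross. The cause of the other changes was not tested, except that fits of 2 groups and fits without a library hold fewer samples.

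The number of the 10 genes called moved as follows. For Tsc1L-/- against control it was 0 and became 1 by DESeq2. For DKO against Cpt2L-/- it was 2 and became 1 with upper-quartile scaling, no filter, a fit of 2 groups or the length offset, and 0 in the fit of 24 libraries. For DKO against Tsc1L-/- it was 3 and became 5 by DESeq2. For Ppara KO against control it was 2 and became 1 with no filter or the length offset, with or without the libraries that stood apart. For Cpt2L-/- Ppara KO against Cpt2L-/- it was 2 and became 1 with no filter, limma on log2(FPKM + 1), a fit of 2 groups, the length offset, or without those libraries. For Cpt2L-/- Ppara KO against Ppara KO it was 4 and became 0 in a fit of 2 groups or without those libraries. For the interaction of Cpt2 and Ppara loss it was 2 and became 0 with the length offset and 1 with it and without those libraries. Leaving out each library gave 0 to 0 (Tsc1L-/- against control), 3 to 4 (Cpt2L-/-), 0 to 2 (DKO against Cpt2L-/-), 3 to 4 (DKO against Tsc1L-/-), 0 to 0 (interaction), 1 to 2 (Ppara KO), 1 to 2 (Cpt2L-/- Ppara KO against Cpt2L-/-), 2 to 4 (against Ppara KO) and 1 to 2 (interaction).

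The log2 fold changes that changed sign were not called, apart from Apoc1 in Cpt2L-/- Ppara KO against Cpt2L-/-, at -0.08 with the length offset and -0.09 with it and without both libraries. Apoe in Cpt2L-/- Ppara KO against Ppara KO became -0.13 and -0.05 under the same settings, and the interaction of Apoa4 became -0.40 without both libraries and -0.56 with the offset as well. Apoc2 in Cpt2L-/- Ppara KO against Cpt2L-/- became -0.09 with the offset, -0.02 without both libraries and -0.37 with both settings, where its interaction became -0.07. With single libraries left out, Apoa4 ran from -0.56 to 0.33 in Tsc1L-/- against control, from -1.12 to 0.02 in Ppara KO against control, from -0.63 to 0.13 in Cpt2L-/- Ppara KO against Cpt2L-/- and from -0.18 to 1.03 in the interaction, Apoc2 ran from -0.02 to 0.76 in Cpt2L-/- Ppara KO against Cpt2L-/-, and Apoc1 reached 0.06 in the interaction of Tsc1 and Cpt2 loss.

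Over all genes, calls for Tsc1L-/- against control fell from 906 to 466 in a fit of 2 groups and 400 in the fit of 24 libraries. In the latter they were 2798 for Cpt2L-/- against control and 1065 for DKO against Cpt2L-/-. For the interaction of Tsc1 and Cpt2 loss, 324 became 204 with total-count scaling, 752 by DESeq2, 195 by limma on log2(FPKM + 0.1) and 65 in the fit of 24 libraries. For Cpt2L-/- Ppara KO against Ppara KO, 3475 became 111 in a fit of 2 groups, 1704 without both libraries and 1420 with the length offset as well. With each library left out the ranges were 583 to 967 for Tsc1L-/- against control, 1428 to 2498 for DKO against Cpt2L-/-, 150 to 403 for the interaction of Tsc1 and Cpt2 loss, 1149 to 2990 for Cpt2L-/- Ppara KO against Cpt2L-/- and 1728 to 4125 against Ppara KO.

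Replicate numbers did not pair the libraries: deviations of same-numbered libraries correlated at -0.255 to 0.165 in the first fit and -0.096 to 0.224 in the second. With the replicate number as a block, 1 gene was called in Cpt2L-/- Ppara KO against Cpt2L-/-, 3 in Ppara KO against control, 3 in the interaction of Cpt2 and Ppara loss and 4 in DKO against Tsc1L-/-. Under the block Apoc2 was called in DKO against Tsc1L-/-, at 0.55 (adjusted p = 0.0443, edgeR), in Ppara KO against control, at -0.91 (adjusted p = 0.0322, edgeR), and in the interaction of Cpt2 and Ppara loss, at 1.39 (adjusted p = 0.0259, edgeR). Upper-quartile scaling moved the median of all genes in the interaction of Cpt2 and Ppara loss by 0.112.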
